A study of Ovis aries with 24 samples.

Results

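The neural progenitor and germinal matrix genes TNC, SOX2, NES, PAX6, HES1, HES5, EOMES, DCX, FABP7 and HOPX were followed in preterm lambs, in the white matter that borders the lateral ventricles of the brain (periventricular white matter, PVWM). They were taken by gene symbol from a table of 27716 entries, and all 10 were present. Messenger RNA was sequenced in PVWM and liver of lambs in 3 groups, with 4 animals per group and tissue. The budesonide lambs were on mechanical ventilation and were given, into the trachea, 2.5 mL/kg of the pig lung surfactant poractant alfa together with 0.25 mg/kg of the glucocorticoid budesonide. Their gestational age was 126 days in 3 females and 127 days in 1 male. The surfactant lambs were ventilated and received the same surfactant dose without budesonide, and they had the same ages and sexes. The unventilated lambs received neither agent. Their PVWM came from 2 males of 127 days and from a female and a lamb of unstated sex, both of 128 days. The labels of their livers give the same ages and sexes. The unventilated PVWM came from lambs 057, 058, 060 and 061, and the unventilated livers from lambs 057, 058, 059 and 060. No genetic change was labelled in any group. The comparisons ask what ventilation with surfactant did to these transcripts, and what budesonide added.

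Before and around birth the ventricles are lined by a germinal zone that makes neurons first and glia later. In that zone radial glia act as stem cells, Notch signalling holds back their conversion into neurons through the HES repressors, intermediate progenitors form a short-lived transit stage, and young neurons migrate away. The germinal matrix is also where brain haemorrhage of preterm infants usually begins. These roles are known mainly from mouse and human, and SOX2, FABP7, HOPX and TNC are also made by astrocytes.

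PVWM libraries held 14.9 to 17.5 M counts (M stands for 1000000) and liver libraries 16.1 to 23.2 M. Levels are given as CPM, counts per 1000000 counts after TMM scaling (trimmed mean of M values), and were compared between lambs but not between genes. A gene was called when its Benjamini-Hochberg adjusted p from edgeR's quasi-likelihood test over all genes was under 0.05. The labelled tissue was checked against marker lists. In PVWM, 8 astrocyte markers summed to 4320 to 6640 CPM and 8 mature neuron markers to 3430 to 4960 CPM, while 6 hepatocyte markers summed to 36.6 to 208 CPM against 166000 to 249000 CPM in liver. Choroid plexus markers summed to 0.927 to 147 CPM and ependymal markers to 32.6 to 123 CPM, with ranges that overlapped between the groups. The mean sums in budesonide, surfactant and unventilated lambs were 7.36, 19.9 and 40.9 CPM for choroid plexus and 59, 71.5 and 83 CPM for ependyma. The highest choroid plexus sums were 147 CPM in unventilated lamb 060 and 62.8 CPM in surfactant lamb 007. Whether the samples differed in closeness to the ventricle was not tested. Of 10 oligodendrocyte and myelin markers none was called, but their sum was 17300 CPM in surfactant lamb 051 and 995 to 3840 CPM in the other 11 lambs.

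In PVWM, 6 of the 10 genes fell in budesonide relative to unventilated lambs (TNC, HES5, FABP7, NES, PAX6 and SOX2), against 8.06% of all 18616 genes tested that were called in either direction and 3.71% called lower. In surfactant relative to unventilated lambs TNC, HES5 and FABP7 fell, which is 3 of 10 against 2.05% called among all genes and 0.698% called lower. In budesonide relative to surfactant lambs TNC fell, 1 of 10, against 0.978% called among all genes and 0.387% called lower. None of the 10 rose in any of the 3 comparisons. The median log2 change of the 10 genes was -0.54 for budesonide against unventilated, -0.32 for surfactant against unventilated and -0.26 for budesonide against surfactant, and that of all genes was 0.008, 0.015 and -0.01 in the same comparisons. These are bulk samples, in which fewer cells of a type and less RNA per cell cannot be told apart. The 3 comparisons share lambs, so their values are set side by side and are not independent of each other.

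**Figure D1:**
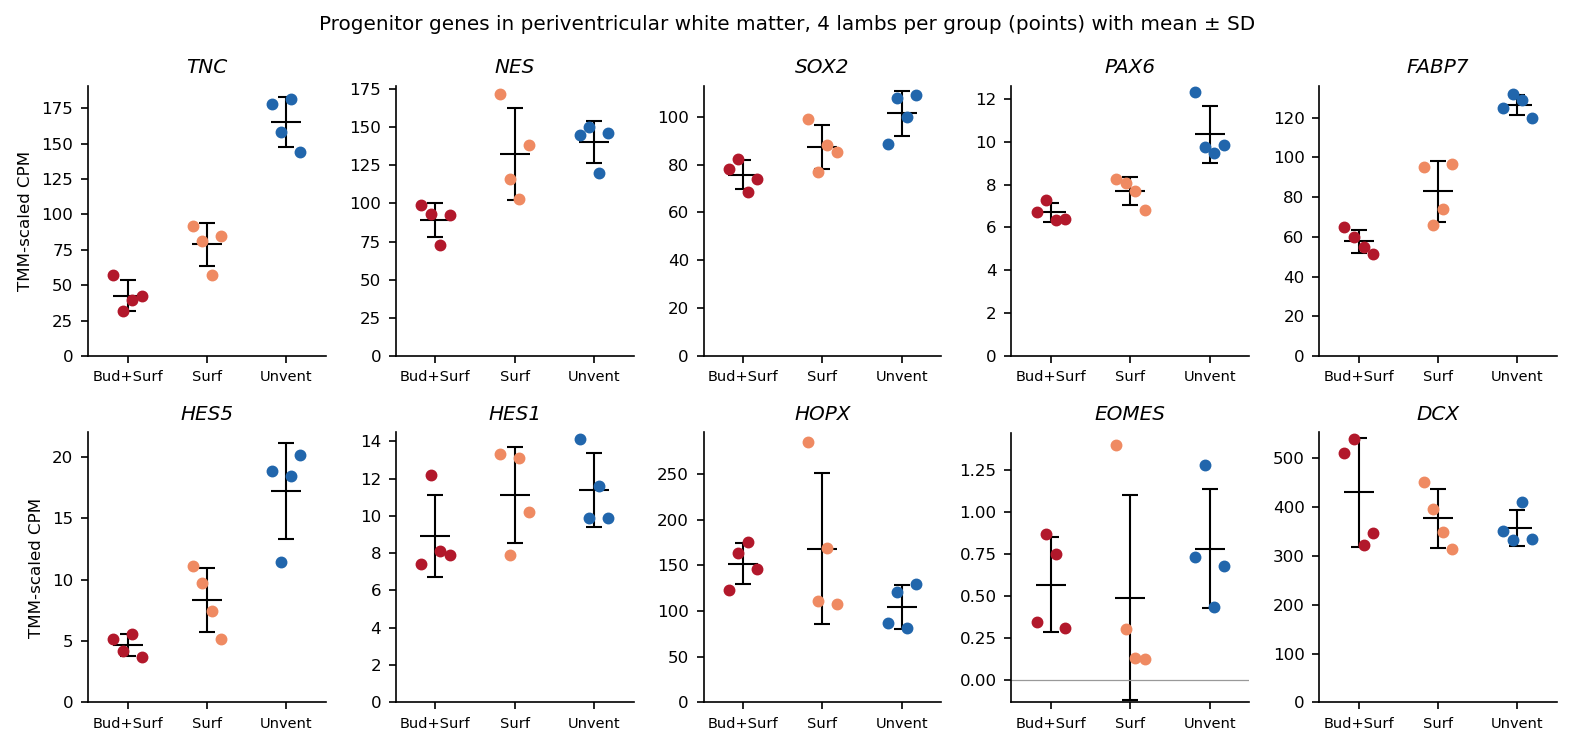
CPM of the 10 genes in PVWM (vertical axes) by group, with 1 point per lamb, 4 lambs per group, and mean ± SD (Bud+Surf, budesonide lambs; Surf, surfactant lambs; Unvent, unventilated lambs; the SD bar of EOMES in surfactant lambs runs below 0). TNC, FABP7 and HES5 had their lowest group mean in budesonide lambs, an intermediate mean in surfactant lambs and the highest mean in unventilated lambs, whereas DCX and EOMES overlapped throughout.

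TNC encodes tenascin-C, a matrix glycoprotein of the germinal zone. It was measured at 57.3, 31.5, 39.3 and 42.7 CPM in budesonide lambs 031, 048, 050 and 054, at 92, 81.4, 57.3 and 84.8 CPM in surfactant lambs 007, 032, 049 and 051, and at 178, 158, 182 and 144 CPM in unventilated lambs 057, 058, 060 and 061. No ventilated lamb reached the unventilated range, while the highest budesonide lamb and the lowest surfactant lamb stood at the same rounded level. Against unventilated lambs the log2 change was -1.95 ± 0.18 in budesonide lambs (SE, adjusted p = 2.75e-05) and -1.07 ± 0.18 in surfactant lambs (adjusted p = 0.00759). The budesonide mean was 0.258 times the unventilated mean, and 0.306% of all genes had a log2 change as low or lower. Budesonide against surfactant gave -0.89 ± 0.18 (adjusted p = 0.0353), a call that ended without any of budesonide lambs 048, 050 or 054, surfactant lambs 007, 032 or 051, or unventilated lambs 060 or 061 (adjusted p of 0.0545 to 0.11). It also ended when only those 2 groups were fitted (adjusted p = 0.111) or sex was added (0.0789) or gestational age was added (0.0526), with the log2 change at -0.89 to -0.88 in these fits. The annotation of a newer sheep assembly places a long non-coding RNA locus over TNC and another over SOX2, and no source used here gives the strand setting of the counting.

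FABP7, the brain fatty acid binding protein of radial glia, fell in 2 of the 3 comparisons. Its levels were 64.8, 59.8, 55 and 51.3 CPM in budesonide lambs, 95.1, 66, 74.2 and 96.9 CPM in surfactant lambs, and 125, 132, 129 and 120 CPM in unventilated lambs. The 3 groups did not overlap, as for TNC, although the gap between budesonide and surfactant lambs was narrow. The log2 change was -1.13 ± 0.12 for budesonide against unventilated (adjusted p = 8.64e-05) and -0.61 ± 0.12 for surfactant against unventilated (adjusted p = 0.0202). For budesonide against surfactant it was -0.52, with a 95% interval of -0.78 to -0.26, and was not called (adjusted p = 0.0625). DESeq2 called that difference (adjusted p = 0.00497), as did edgeR without surfactant lamb 032 (0.0285). The call for surfactant against unventilated ended without surfactant lamb 049 (adjusted p = 0.0548) or unventilated lambs 058 (0.0513) or 060 (0.0564). In 53 of the 18616 genes (0.285%) all 4 budesonide lambs lay below all surfactant lambs, and these below all unventilated lambs, and TNC and FABP7 were among them.

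HES5 and HES1 encode repressors switched on by Notch signalling, and they differed in their result. HES5 was at 5.17, 4.17, 5.6 and 3.71 CPM in budesonide lambs, at 11.1, 9.68, 7.41 and 5.12 CPM in surfactant lambs, and at 18.8, 11.4, 18.4 and 20.1 CPM in unventilated lambs. Unventilated lamb 058 stood close to surfactant lamb 007, and surfactant lamb 051 lay within the budesonide range. HES5 fell by 1.88 ± 0.25 on the log2 scale in budesonide against unventilated lambs (adjusted p = 0.000453). In surfactant against unventilated lambs it fell by 1.04 ± 0.24 (adjusted p = 0.0426), a call that held without surfactant lamb 007 or unventilated lamb 058 and ended without any other single lamb of the 3 groups (adjusted p of 0.0527 to 0.135). Budesonide against surfactant gave -0.84 (95% interval -1.37 to -0.3) and was not called by edgeR (adjusted p = 0.157), with DESeq2 at 0.0494. HES1 was at 7.43 to 12.2 CPM in budesonide lambs, 7.9 to 13.3 CPM in surfactant lambs and 9.89 to 14.1 CPM in unventilated lambs, ranges that overlapped. The HES1 log2 change for budesonide against unventilated was -0.35 (95% interval -0.79 to 0.1, adjusted p = 0.359). Whether HES5 and HES1 differed from each other was not tested.

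SOX2, PAX6 and NES are used as markers of neural stem cells, though SOX2 is also made by astrocytes and NES was also detected in liver. SOX2 and PAX6 are transcription factors of radial glia, and NES encodes the intermediate filament nestin. SOX2 was at 78.2, 82.4, 68.4 and 74.1 CPM in budesonide lambs, 99.2, 77, 88.1 and 85.3 CPM in surfactant lambs, and 88.8, 108, 99.9 and 109 CPM in unventilated lambs. The budesonide lambs all lay below the unventilated lambs, and the surfactant lambs overlapped both. SOX2 fell by 0.42 ± 0.1 on the log2 scale in budesonide against unventilated lambs (adjusted p = 0.0167), the smallest change among the 6 called genes, and the call ended without budesonide lamb 050 (adjusted p = 0.0562) or unventilated lamb 061 (0.0502). It gave -0.21 in each of the other 2 comparisons, neither called (adjusted p = 0.424 for budesonide against surfactant and 0.322 for surfactant against unventilated).

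PAX6 was at 6.74, 7.3, 6.35 and 6.41 CPM in budesonide lambs, 8.25, 8.08, 7.68 and 6.8 CPM in surfactant lambs, and 12.3, 9.76, 9.46 and 9.85 CPM in unventilated lambs. Every ventilated lamb lay below every unventilated lamb. PAX6 fell by 0.63 ± 0.13 in budesonide against unventilated lambs (adjusted p = 0.00793), and surfactant against unventilated gave -0.43 (95% interval -0.7 to -0.15, adjusted p = 0.117). Budesonide against surfactant gave -0.2 for PAX6 (adjusted p = 0.6).

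NES was at 98.7, 92.8, 72.5 and 92.3 CPM in budesonide lambs, 172, 116, 103 and 138 CPM in surfactant lambs, and 145, 150, 120 and 146 CPM in unventilated lambs. The surfactant lambs spanned the unventilated range, while all budesonide lambs lay below both other groups. NES fell by 0.65 ± 0.15 in budesonide against unventilated lambs (adjusted p = 0.0165), a call that ended without budesonide lamb 050 (adjusted p = 0.0537). Budesonide against surfactant gave -0.57 (95% interval -0.89 to -0.25) and missed the threshold at an adjusted p of 0.105, with DESeq2 at 0.0185. Surfactant against unventilated gave -0.08 (95% interval -0.4 to 0.24, adjusted p = 0.855).

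The genes of later stages, EOMES for intermediate progenitors and DCX for migrating young neurons, were not called in any comparison. EOMES, which encodes the T-box factor TBR2, gave 6, 15, 13 and 5 counts in budesonide lambs, 23, 5, 2 and 2 counts in surfactant lambs, and 12, 20, 7 and 11 counts in unventilated lambs. At this depth its intervals were wide, from -1.85 to 0.96 on the log2 scale for budesonide against unventilated. DCX, the microtubule-binding protein doublecortin, was at 510, 540, 322 and 347 CPM in budesonide lambs, 452, 396, 348 and 313 CPM in surfactant lambs, and 350, 332, 410 and 335 CPM in unventilated lambs. Budesonide lambs 031 and 048 were the highest of the 12, and the other 2 lay in the range of the other groups. The 95% interval for DCX in budesonide against unventilated ran from -0.09 to 0.63, so a log2 fall of the size seen for FABP7 lay outside it. DCX overlaps a small nuclear RNA locus in the same annotation.

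HOPX, a small homeodomain protein of outer radial glia and astrocytes, was at 123, 163, 175 and 146 CPM in budesonide lambs, 285, 111, 169 and 108 CPM in surfactant lambs, and 87.1, 121, 81.3 and 129 CPM in unventilated lambs. Surfactant lamb 007 was the highest and the 3 groups overlapped. The log2 change was 0.53 for budesonide against unventilated (95% interval -0.06 to 1.13, adjusted p = 0.283) and 0.68 for surfactant against unventilated (95% interval 0.09 to 1.28, adjusted p = 0.262). Lamb 007, the only male of the surfactant lambs and the only one of 127 days, had the highest level in that group for 9 of the 10 genes, all but FABP7. It also had the highest sums of that group for choroid plexus markers (62.8 CPM) and ependymal markers (98.5 CPM). For astrocyte markers (6560 CPM) and mature neuron markers (3710 CPM) it was not the highest. The part of sex, age or the tissue sampled was not tested.

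**Figure D2:**
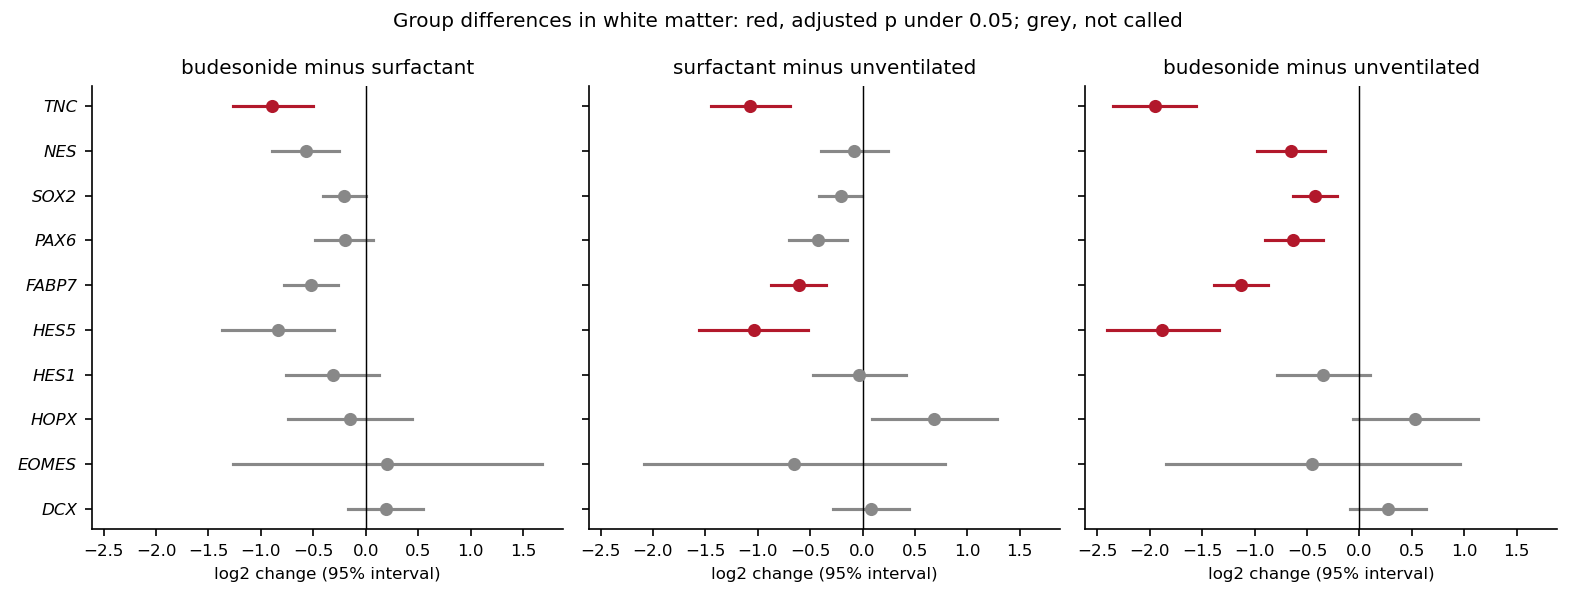
Log2 change with its 95% interval (horizontal axes) of each gene in PVWM, in the 3 comparisons; red marks an adjusted p under 0.05. Called genes lie left of 0 in each panel, from -0.42 for SOX2 to -1.95 for TNC in budesonide against unventilated lambs.

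Across the 10 genes, the group means ran in the order budesonide, surfactant, unventilated, from lowest to highest, for TNC, SOX2, NES, PAX6, HES1, HES5 and FABP7, which is 7 of 10 against 21.4% of all genes tested. CPM ranges did not overlap between budesonide and unventilated lambs for 6 of the 10 genes, against 17.2% of all genes. For surfactant against unventilated lambs this held for 4 genes, against 8.4% of all genes, and for budesonide against surfactant lambs for 3 genes, against 7.6%.

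Gestational age did not vary freely between the groups, since every lamb of 128 days was unventilated and every lamb of 126 days was ventilated. Both sexes occurred in every PVWM group, in unequal shares. There were 1 male and 3 females in each ventilated group, and 2 males, 1 female and 1 lamb of unstated sex in the unventilated group. With age as a covariate, TNC (log2 -1.86, adjusted p = 0.00458) and FABP7 (-1.13, 0.0102) kept the call for budesonide against unventilated lambs. The calls of HES5 (-1.57, adjusted p = 0.0621), PAX6 (-0.7, 0.104), NES (-0.5, 0.368) and SOX2 (-0.3, 0.43) ended in that fit, with log2 changes still below 0. With sex as a covariate, which leaves out the lamb of unstated sex, TNC (-2, adjusted p = 0.000644), FABP7 (-1.15, 0.00176) and HES5 (-1.8, 0.00738) kept it, while PAX6 (-0.62, 0.0637), NES (-0.5, 0.108) and SOX2 (-0.36, 0.127) did not. For surfactant against unventilated lambs the 3 calls ended in both fits, with TNC at -0.98 (adjusted p = 0.314) with age and -1.11 (0.0502) with sex, FABP7 at -0.61 (0.412) and -0.63 (0.114), and HES5 at -0.76 (0.8) and -0.97 (0.245). The 4 PVWM lambs of 127 days were all male and cover the 3 groups. Among them TNC was at 42.7 CPM in the budesonide lamb, 92 CPM in the surfactant lamb and 178 and 158 CPM in the unventilated lambs. FABP7 was at 51.3 CPM in that budesonide lamb, 95.1 CPM in the surfactant lamb and 125 and 132 CPM in the unventilated lambs. For 4 of the 10 genes (TNC, PAX6, HES5 and FABP7) the budesonide lamb was below the surfactant lamb and this below both unventilated lambs of that age, and for the other 6 it was not. HES5 was at 3.71 CPM in the budesonide lamb, 11.1 CPM in the surfactant lamb and 18.8 and 11.4 CPM in the unventilated lambs of that age. NES was at 92.3 CPM in the budesonide lamb, at 172 CPM in the surfactant lamb and at 145 and 150 CPM in the unventilated lambs. With 1 or 2 lambs per group these values allow no test, and age and ventilation cannot be told apart.

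The Notch pathway, which drives HES5 and HES1, was read from 36 further genes. In budesonide against unventilated lambs 6 fell and 4 rose, and in each of the other comparisons 1 fell and none rose. That gene was the receptor NOTCH1, at 23.5, 24.6, 21.5 and 24.8 CPM in budesonide lambs, 44, 36.9, 48.2 and 31.6 CPM in surfactant lambs, and 73.3, 67.3, 67 and 69.9 CPM in unventilated lambs. The 3 groups did not overlap at any step. NOTCH1 fell by 1.56 ± 0.12 on the log2 scale in budesonide against unventilated lambs (adjusted p = 6.46e-06), by 0.79 ± 0.11 in surfactant against unventilated lambs (0.00334) and by 0.77 ± 0.12 in budesonide against surfactant lambs (0.00806), the last at 0.0507 when only those 2 groups were fitted. DTX1, a deltex regulator of Notch, fell by 0.58 ± 0.1 in budesonide against unventilated lambs (adjusted p = 0.00264), and ADAM17, a protease that cuts Notch, rose by 0.61 ± 0.09 (0.00149). The median log2 change of the 36 genes in that comparison was -0.07, so the list as a whole was centred near that of all genes.

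Among 15 other radial glia genes, 5 fell and 1 rose in budesonide against unventilated lambs, with a median log2 change of -0.33, and 1 fell in surfactant against unventilated lambs. GLI3, a transcription factor of the hedgehog pathway, averaged 11 ± 2.21 CPM in budesonide lambs, 13.1 ± 5.01 CPM in surfactant lambs and 34.5 ± 3.79 CPM in unventilated lambs (SD, n = 4 each). It fell in budesonide lambs (log2 -1.64 ± 0.25, adjusted p = 0.00121) and in surfactant lambs (-1.4 ± 0.25, adjusted p = 0.0112), each against unventilated lambs. MSI1, the RNA-binding protein Musashi-1 of neural stem cells, fell by 1.73 ± 0.3 in budesonide against unventilated lambs (adjusted p = 0.00321). SOX9, a transcription factor of radial glia and astrocytes, moved the other way and rose by 0.7 ± 0.11 (adjusted p = 0.00185).

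Outer radial glia genes were mixed, with 3 of 11 higher and 2 lower in budesonide against unventilated lambs. Of these, the cytokine receptor genes LIFR and IL6ST rose by 1.09 ± 0.17 (adjusted p = 0.0017) and 1.3 ± 0.18 (adjusted p = 0.000707), and the integrin ITGB5 fell by 0.79 ± 0.11 (adjusted p = 0.000842). LIFR rose and ITGB5 fell also against surfactant lambs, by 0.9 ± 0.17 (adjusted p = 0.0301) and 0.66 ± 0.11 (adjusted p = 0.0173). The LIFR call in that comparison ended without any of the 4 budesonide lambs or surfactant lambs 032 or 051 (adjusted p of 0.0606 to 0.0837), with only those 2 groups fitted (0.0625) or with sex as a covariate (0.0774). The ITGB5 call ended without budesonide lambs 031 (0.0557) or 048 (0.0588) and with only those 2 groups fitted (0.0586).

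Lists of later stages stayed without a call in all 3 comparisons, in 8 intermediate progenitor genes, 18 young neuron genes and 17 ganglionic eminence and interneuron genes. Of all genes tested, 8.06% were called in budesonide against unventilated, 2.05% in surfactant against unventilated and 0.978% in budesonide against surfactant lambs. At those shares lists this short would hold few calls. The median log2 changes of the 3 lists in budesonide against unventilated lambs were -0.27, -0.03 and -0.36. Of 32 cell cycle genes 1 fell and 1 rose in that comparison, with a median of 0.06. The one that fell was CCND1, cyclin D1 of the G1 phase, at 53.5 ± 6.17 CPM in budesonide lambs and 104 ± 10.8 CPM in unventilated lambs (SD, n = 4 each; log2 -0.96 ± 0.13, adjusted p = 0.00059). The one that rose was CCNE2, cyclin E2 (log2 0.61 ± 0.17, adjusted p = 0.0375), whose call ended without any of budesonide lambs 031, 050 or 054, surfactant lamb 032 or the 4 unventilated lambs (adjusted p of 0.0506 to 0.111).

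**Figure D3:**
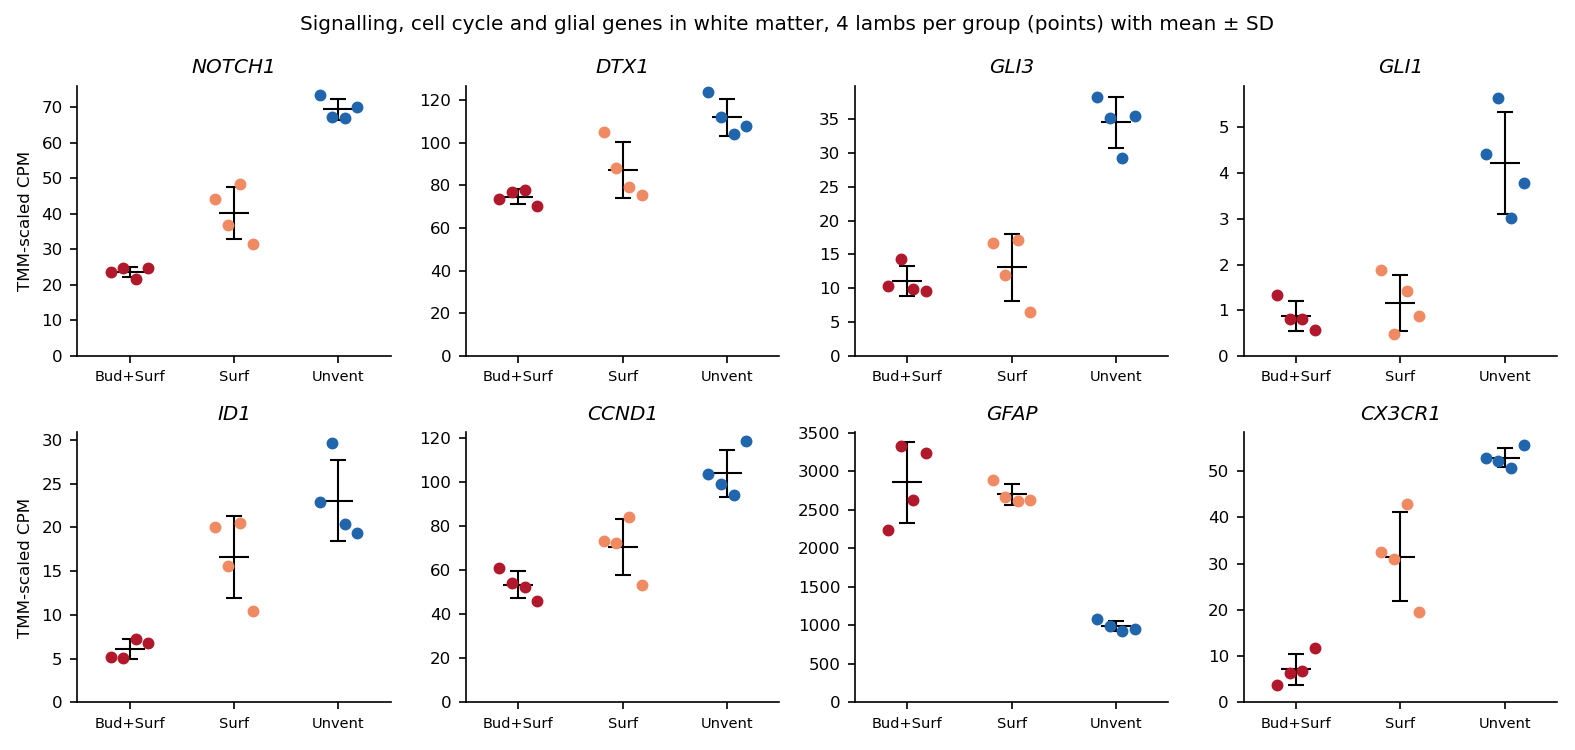
CPM (vertical axes) of NOTCH1, DTX1, GLI3, GLI1, ID1, CCND1, GFAP and CX3CR1 in PVWM by group, 1 point per lamb, 4 lambs per group, with mean ± SD. NOTCH1 separated all 3 groups, GLI3 and GLI1 separated ventilated from unventilated lambs, and GFAP was higher in both ventilated groups.

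The hedgehog and BMP lists, 2 other signals of the germinal zone, had medians below 0 in budesonide against unventilated lambs. Of 8 hedgehog genes 4 fell, with a median log2 change of -0.44, and of 12 BMP and ID genes 3 fell, with a median of -0.53. None of either list rose. GLI1, a target and effector of hedgehog signalling, was at 9 to 23 counts in budesonide lambs, 8 to 31 counts in surfactant lambs and 48 to 88 counts in unventilated lambs. It fell by 2.24 ± 0.38 (adjusted p = 0.00259) in budesonide and by 1.85 ± 0.37 (adjusted p = 0.0224) in surfactant lambs against unventilated lambs, and the second call ended without surfactant lamb 051 or unventilated lambs 057, 058 or 061 (adjusted p of 0.0508 to 0.0654). The hedgehog co-receptor BOC fell by 1.18 ± 0.19 (adjusted p = 0.00209) in budesonide against unventilated lambs.

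ID1, a helix-loop-helix inhibitor switched on by BMP, was at 5.23, 5.1, 7.27 and 6.79 CPM in budesonide lambs, 20, 15.6, 20.5 and 10.4 CPM in surfactant lambs, and 22.9, 29.6, 20.4 and 19.3 CPM in unventilated lambs. The budesonide lambs stood below both other groups, which overlapped each other. ID1 fell by 1.44 ± 0.22 (adjusted p = 0.00819) in budesonide against surfactant lambs and by 1.92 ± 0.22 (adjusted p = 0.000155) against unventilated lambs. The BMP receptor BMPR1B fell by 0.91 ± 0.17 (adjusted p = 0.00491) against unventilated lambs, as did ID3 by 1.33 ± 0.3 (adjusted p = 0.0164), and the ID3 call ended without budesonide lambs 048 (0.0519) or 050 (0.0568).

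Matrix genes linked to tenascin did not follow TNC as a list, with 1 of 20 higher and 2 lower in budesonide against unventilated lambs and a median log2 change of -0.05. SDC4, the cell-surface proteoglycan syndecan-4, rose in budesonide lambs (1.61 ± 0.15, adjusted p = 2.98e-05) and in surfactant lambs (1.26 ± 0.15, adjusted p = 0.00127) against unventilated lambs. CSPG5, a brain chondroitin sulphate proteoglycan, fell by 0.39 ± 0.07 in budesonide against unventilated lambs (adjusted p = 0.00385). NCAN, the chondroitin sulphate proteoglycan neurocan, fell by 0.32 ± 0.09 (adjusted p = 0.0441), a call that ended without any of the 4 budesonide lambs, surfactant lamb 032 or unventilated lambs 057, 060 or 061 (adjusted p of 0.0542 to 0.128).

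Of the 33 list and marker gene results named for budesonide against unventilated lambs, 16 kept their call with age as a covariate and 27 with sex. NOTCH1, ID1, BOC, CCND1, SDC4, LIFR, IL6ST, ITGB5, GFAP and CX3CR1 kept it in both fits, while GLI3, GLI1, MSI1, SOX9, DTX1, ADAM17, BMPR1B, CSPG5 and AQP4 lost it with age. Their log2 changes in the fit with age were -1.64 for GLI3, -2.38 for GLI1, -1.59 for MSI1, 0.7 for SOX9, -0.56 for DTX1, 0.53 for ADAM17, -0.81 for BMPR1B, -0.35 for CSPG5 and -0.48 for AQP4, each in the direction of the fit without age. ID3, NCAN, CCNE2, CSPG4 and NOTCH3 lost the call in both fits (adjusted p of 0.161 to 0.396 with age and 0.0795 to 0.171 with sex). With age these genes were at -1.4, -0.31, 0.81, 0.51 and -0.69, in that order and also in the direction of the fit without age. Of 14 such results for surfactant against unventilated lambs 3 kept the call with age (FKBP5, PDK4 and GFAP) and 6 with sex, and of 10 for budesonide against surfactant lambs 10 kept it with age and 7 with sex.

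**Figure D4:**
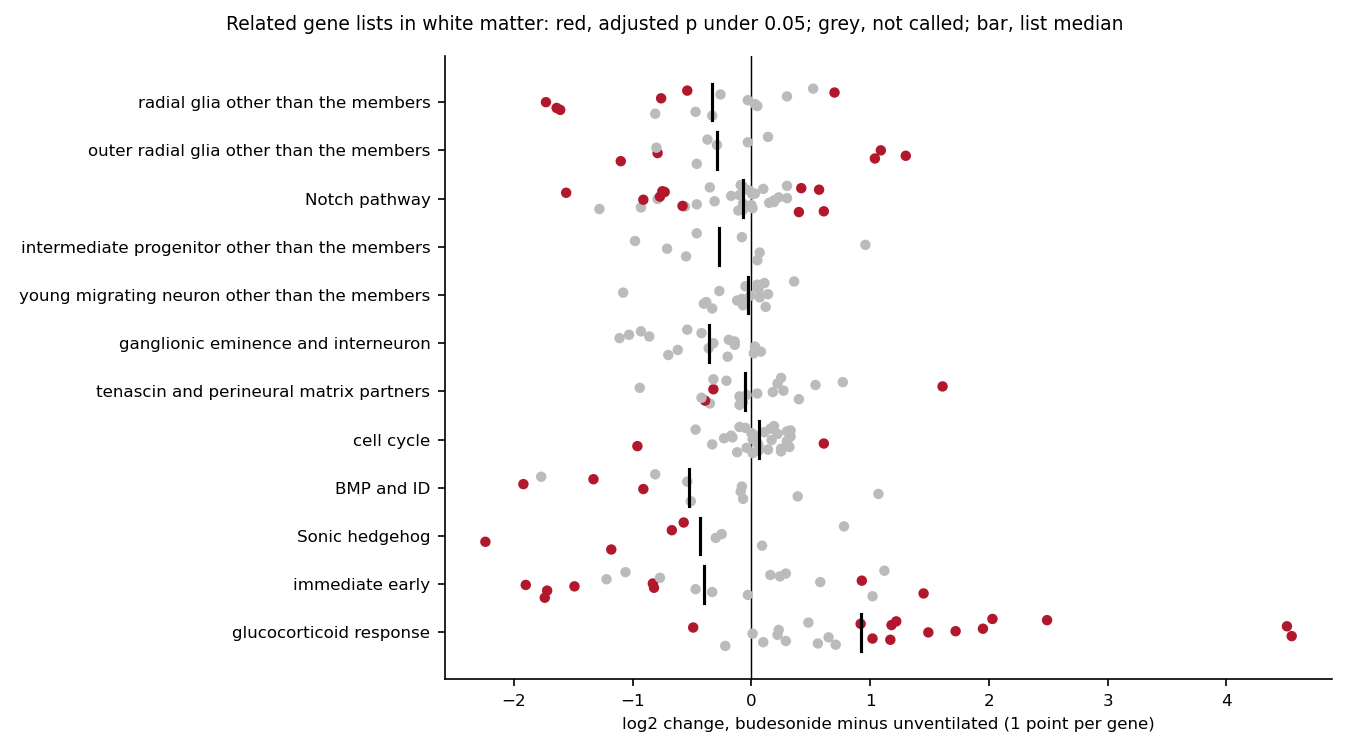
Log2 change in budesonide against unventilated lambs (horizontal axis) of each gene in 12 related lists in PVWM; red points have an adjusted p under 0.05 and the bar is the list median. The hedgehog and BMP lists have medians of -0.44 and -0.53. No gene of the 3 later-stage lists was called, where 8.06% of all genes tested were called.

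Response genes moved in the same lambs. Of 23 glucocorticoid response genes 12 rose and 1 fell in budesonide against unventilated lambs, 9 rose and 1 fell in surfactant against unventilated lambs, and 5 rose in budesonide against surfactant lambs. FKBP5, a chaperone of the glucocorticoid receptor, was at 401 to 478 CPM in budesonide lambs, 113 to 183 CPM in surfactant lambs and 14.1 to 21.8 CPM in unventilated lambs. Of 20 immediate early genes 6 fell and 2 rose in budesonide against unventilated lambs. JUN, with the smallest adjusted p of the list, rose by 0.93 ± 0.14 (adjusted p = 0.00131), a call that ended with age as a covariate (0.118). EGR1 fell, at 13.4 ± 2.84 CPM in budesonide and 44.3 ± 9.37 CPM in unventilated lambs (SD, n = 4 each, log2 -1.72 ± 0.28, adjusted p = 0.00195). In surfactant against unventilated lambs 3 immediate early genes rose and 1 fell, and in budesonide against surfactant lambs 1 fell. Against unventilated lambs, JUN rose by 0.85 ± 0.14 (adjusted p = 0.0081) and IER3 by 3.9 ± 0.77 (0.0201) in surfactant lambs. FOSB fell there by 1.5 ± 0.3 (0.0224). The calls of JUN, IER3 and FOSB in that comparison ended with age or with sex as a covariate.

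Markers of other cells also moved with the groups. Of 9 microglia and macrophage markers, none at 0, 5 fell and 1 rose in budesonide against unventilated lambs and 3 fell in budesonide against surfactant lambs, while none was called in surfactant against unventilated lambs. Their sum was 100 to 133 CPM in budesonide lambs, 191 to 259 CPM in surfactant lambs and 232 to 249 CPM in unventilated lambs. CX3CR1, the fractalkine receptor of microglia, averaged 7.18 ± 3.32 CPM in budesonide lambs and 52.8 ± 2.08 CPM in unventilated lambs (SD, n = 4 each; log2 -2.88 ± 0.29, adjusted p = 5.57e-05). Of 8 astrocyte markers 1 rose and 2 fell in budesonide against unventilated lambs, and their sum was 5200 to 6620 CPM in budesonide lambs, 5880 to 6640 CPM in surfactant lambs and 4320 to 5020 CPM in unventilated lambs. GFAP, the astrocyte filament, rose by 1.53 ± 0.11 (adjusted p = 6.46e-06) in budesonide and by 1.45 ± 0.11 (adjusted p = 4.67e-05) in surfactant lambs against unventilated lambs, whereas the water channel AQP4 fell by 0.64 ± 0.12 in budesonide lambs (adjusted p = 0.00439).

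Of 5 oligodendrocyte precursor markers CSPG4 rose in budesonide against unventilated lambs (0.56 ± 0.15, adjusted p = 0.0348), of 7 endothelial markers ESAM fell (-0.87 ± 0.15, adjusted p = 0.0028) and of 5 pericyte markers NOTCH3 fell (-0.75 ± 0.17, adjusted p = 0.0188). The NOTCH3 call ended without unventilated lamb 057 (0.0511), and the CSPG4 call without budesonide lambs 031, 048 or 054, surfactant lamb 032 or unventilated lambs 058, 060 or 061 (0.0534 to 0.104). No marker of ependyma, choroid plexus, mature neurons, fibroblasts, red blood cells or hepatocytes was called, and of choroid plexus only 1 marker passed the low-count filter. The part of these marker shifts in the changes of the progenitor genes was not tested.

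For each of the 6 called genes, the 3 genes nearest in profile over the 12 PVWM libraries were found among 13699 genes by the root-mean-square difference of centred log2 CPM. The nearest to TNC were SLC7A10, SLC38A5 and ASAP3, at 0.257, 0.297 and 0.315, against a spread of 0.883 (SD) in TNC itself. FABP7 was nearest to AIF1L, PVRIG and ARHGAP4, at 0.121, 0.137 and 0.157. HES5 was nearest to TRIL, NKD1 and NOTCH1, at 0.32, 0.339 and 0.344. PAX6 was nearest to DTX1, PFKFB3 and FAM171A2, at 0.09, 0.095 and 0.1. SOX2 was nearest to AKT1, MOB3C and ANKMY2, at 0.09, 0.095 and 0.102, and NES to FAM173A, GPR37L1 and PAQR7, at 0.167, 0.174 and 0.184. These distances describe the 12 libraries, which share groups and depth.

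In liver, which holds no germinal zone, the same genes gave another picture. SOX2, PAX6, HES5 and FABP7 had at most 7 counts in any liver library and did not pass the low-count filter, so 6 of the 10 genes were tested. In budesonide against surfactant lambs 3 of the 6 were called, against 11.9% of 16824 genes. In surfactant against unventilated lambs 3 were called, against 41.1%, and in budesonide against unventilated lambs 3, against 47%.

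TNC ran the opposite way in liver. It was at 208, 155, 293 and 108 CPM in budesonide lambs, 43.6, 43, 160 and 183 CPM in surfactant lambs, and 38.1, 29, 40.4 and 37.7 CPM in unventilated lambs. Unventilated liver values stand in the order of lambs 057, 058, 059 and 060, here and below. All ventilated lambs were above the unventilated lambs, and surfactant lambs 007 and 032 were only just above them. The budesonide and surfactant ranges overlapped, and TNC was not called between these groups (log2 0.83, adjusted p = 0.238). TNC rose by 2.4 ± 0.47 on the log2 scale in budesonide (adjusted p = 0.00139) and by 1.56 ± 0.46 in surfactant lambs (adjusted p = 0.0172) against unventilated lambs. The second call ended without surfactant lambs 049 (adjusted p = 0.0558) or 051 (0.0641) and with age (0.646) or sex (0.152) as a covariate, and the first with age (log2 1.48, adjusted p = 0.19). The liver change minus the PVWM change was 4.44 ± 0.54 for budesonide against unventilated (adjusted p = 3.51e-06) and 2.72 ± 0.53 for surfactant against unventilated (0.000701), where 29.7% and 25.8% of 20010 genes were called in these tests of the tissue difference.

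HOPX rose in liver in all 3 comparisons. It was at 373, 272, 313 and 260 CPM in budesonide lambs, 115, 58.7, 24.7 and 147 CPM in surfactant lambs, and 20, 22, 24.4 and 18.9 CPM in unventilated lambs. The groups did not overlap, although surfactant lamb 049 was next to the unventilated lambs. The log2 change was 3.84 ± 0.44 for budesonide against unventilated (adjusted p = 3.5e-05), 2.01 ± 0.41 for surfactant against unventilated (0.00223) and 1.82 ± 0.4 for budesonide against surfactant (0.0143). The liver change of HOPX minus its PVWM change was 3.38 ± 0.52 for budesonide against unventilated (adjusted p = 4.53e-05) and 1.98 ± 0.5 for budesonide against surfactant (0.031), a comparison with 3.41% of all genes called for a tissue difference.

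NES fell in liver in budesonide against unventilated lambs, at 3.09, 1.83, 1.51 and 3.6 CPM in budesonide lambs, 3.61, 6.96, 6.28 and 3.24 CPM in surfactant lambs, and 9.83, 9.4, 6.47 and 6.56 CPM in unventilated lambs. The budesonide lambs were all below the unventilated lambs (log2 -1.69 ± 0.34, adjusted p = 0.00139), the direction seen in PVWM. For NES, budesonide against surfactant gave -1 (adjusted p = 0.0683) and surfactant against unventilated gave -0.69 (adjusted p = 0.105), neither called. HES1 was at 4.07, 7.05, 3.84 and 6.88 CPM in budesonide lambs, 9.45, 15.9, 35.8 and 10.1 CPM in surfactant lambs, and 7.85, 5.93, 9.76 and 6.61 CPM in unventilated lambs. Surfactant lamb 049 was the highest and the surfactant range overlapped the unventilated range. HES1 fell by 1.7 ± 0.4 in budesonide against surfactant lambs (adjusted p = 0.0193) and rose by 1.24 ± 0.4 in surfactant against unventilated lambs (adjusted p = 0.0246). The first call ended without budesonide lambs 031 (adjusted p = 0.062) or 050 (0.0527), and the second without surfactant lamb 049 (0.106) or unventilated lambs 057 (0.0526), 058 (0.0642) or 060 (0.063), and with age (0.291) or sex (0.147) as a covariate. The first was also not called when only those 2 groups were fitted (0.0567).

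DCX was near the lower end of detection in liver, with 2, 6, 6 and 2 counts in budesonide lambs, 21, 19, 34 and 9 counts in surfactant lambs, and 14, 3, 13 and 19 counts in unventilated lambs. It fell by 2.27 ± 0.6 in budesonide against surfactant lambs (adjusted p = 0.0297), a call that ended without budesonide lambs 031, 048 or 054 or surfactant lambs 032 or 049 (adjusted p of 0.0527 to 0.088). EOMES gave 3 to 9 counts in budesonide, 3 to 32 counts in surfactant and 3 to 16 counts in unventilated livers and was not called in any comparison.

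**Figure D5:**
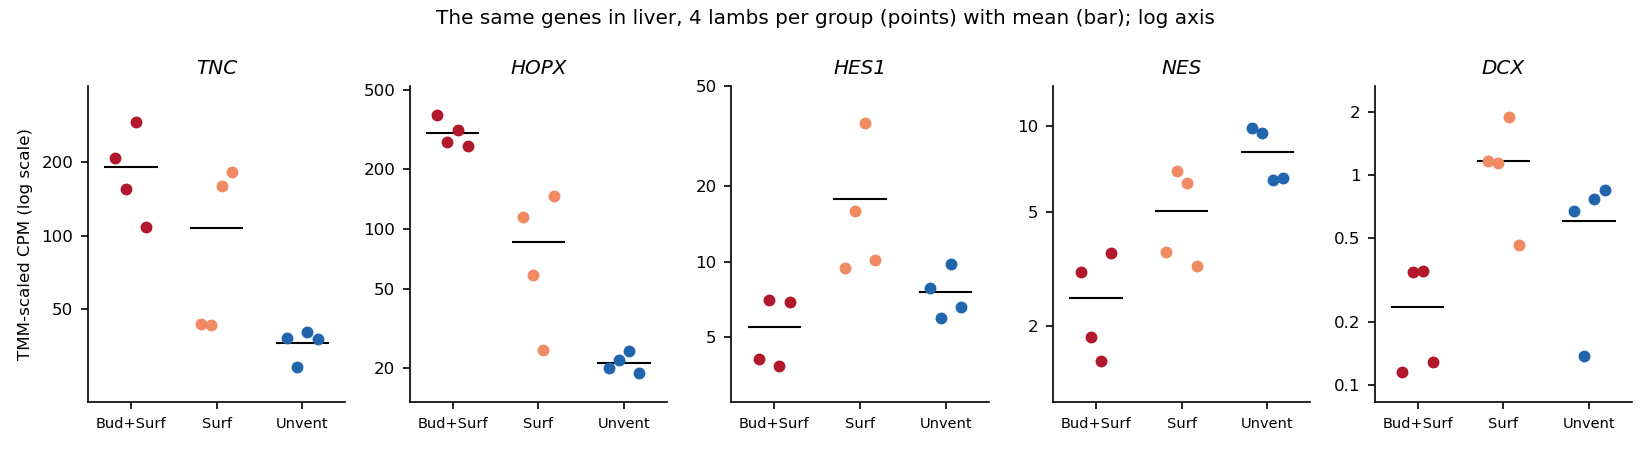
CPM on a log axis (vertical) of TNC, HOPX, HES1, NES and DCX in liver by group, 1 point per lamb, 4 lambs per group, bar at the mean. HOPX was highest in budesonide livers and lowest in unventilated livers, without overlap of the groups. TNC was lowest in unventilated livers and NES had its lowest mean in budesonide livers. The budesonide and surfactant ranges overlapped for both TNC and NES, and neither was called between those groups.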

How the data were processed

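Gene counts of 12 PVWM and 12 liver libraries were analysed as the authors deposited them, unnormalized. The submitters' processing notes name Bowtie2 for alignment, featureCounts for counting and edgeR; versions, genome build, annotation and strand setting are not given in the sources used here. Per the labels' protocols, total RNA was extracted with Trizol, poly-A selected and sequenced in paired 75 bp reads. Treatment, gestational age, sex and animal number were read from the labels, and libraries were taken as separate lambs by their animal numbers.

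The software was edgeR 4.0.16, DESeq2 1.42.0 and limma 3.58.1 in R 4.3.3. Genes passing filterByExpr (18616 in PVWM, 16824 in liver) were TMM-scaled per tissue, and a robust quasi-likelihood model with the 3 groups gave 3 contrasts. The standard error is the log2 change, without its sign, over the root of the test's F value, and SD are over 4 lambs. Alternatives were median-ratio scaling, DESeq2, no low-count filter, only the 2 groups compared, age or sex as a covariate, and leaving out each library. The code was also run on simulated counts with known changes set in budesonide lambs, read in budesonide against surfactant only. That run checks the code and does not test the calls reported here. Of 508 locus identifiers named through the RefSeq gene table of a newer assembly, 7 were list genes; 301 of 308 list genes were found.

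The genes, lists and tests were chosen with earlier results of these data known. All 10 genes are reported in every comparison, with up to 3 called genes of smallest adjusted p per list and PVWM contrast (2 for marker lists) and the 3 nearest profiles of each gene called in PVWM (mean of at least 1 CPM). A gene that met this rule is not reported here. Tissue differences were tested in a joint fit of 24 libraries over 20010 genes, a test chosen after the data were seen. A shared animal number between a PVWM and a liver library was read as 1 lamb; for animal 060 the PVWM label gives a sex and the liver label none. With group means removed, the 11 such pairs correlated at 0.08 to 0.251 (median 0.132; 8 exceeded 0.1), and pairs of different lambs had a median of -0.012.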

Additional observations from a re-analysis of the deposited data

Results flagged for a closer look

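In 3 of the 48 groups of 4 libraries examined, 1 lamb stood apart by Dixon's test at the 95% level, which chance alone gives in about 1 group in 20. PAX6 was at 12.3 CPM in PVWM of unventilated lamb 057 and at 9.46 to 9.85 CPM in the other 3 of the group. HES5 was at 11.4 CPM in PVWM of unventilated lamb 058, where the others had 18.4 to 20.1 CPM. DCX was at 0.137 CPM (3 counts) in liver of unventilated lamb 058, where the others had 0.674 to 0.848 CPM.

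Among the 6 genes that passed the low-count filter in both tissues, the liver change differed from the PVWM change in 8 results, by edgeR's test of the difference over 20010 genes. SOX2, at 0 to 5 counts per liver library, was also called in that test for surfactant against unventilated lambs (adjusted p = 0.00121), and its fold is not given because all unventilated livers were at 0. For budesonide against surfactant lambs, the liver change minus the PVWM change was -2.45 ± 0.55 for DCX (SE, adjusted p = 0.0157) and 1.98 ± 0.5 for HOPX (0.031), where 3.41% of all genes were called. For surfactant against unventilated lambs it was 2.72 ± 0.53 for TNC (adjusted p = 0.000701), 1.37 ± 0.47 for HES1 (0.0341) and 1.4 ± 0.51 for HOPX (0.045), where 25.8% of all genes were called. For budesonide against unventilated lambs it was 4.44 ± 0.54 for TNC (adjusted p = 3.51e-06), 3.38 ± 0.52 for HOPX (4.53e-05) and -0.97 ± 0.36 for NES (0.0457), where 29.7% were called. With the animal as a replicate block in the 11 lambs with both tissues, HOPX in surfactant against unventilated lambs (1.15, adjusted p = 0.158) and NES in budesonide against unventilated lambs (-1.12, adjusted p = 0.0558) were no longer called, and the other 6 were. In the same libraries without the block, that HOPX result was also not called (adjusted p = 0.103), while that NES result was (0.047).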

How the results depend on the processing

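Of 10 calls among the progenitor genes in PVWM, 2 were kept under every alternative (TNC and FABP7 in budesonide against unventilated lambs), 8 were lost under at least 1, none reversed, and 3 results not called gained a call. Of 57 list and marker gene calls named, 23 were kept throughout, and of 9 liver calls 4 were. Median-ratio scaling changed no call of the 10 genes. In PVWM, the number of the 10 genes called in budesonide against surfactant lambs (1 in the fit reported) was 4 with DESeq2 and 0 with only the 2 groups fitted, with age or with sex, and all genes called (182) were 548 with DESeq2, 69 with 2 groups and 80 with sex. For surfactant against unventilated lambs, the 3 genes became 1 with 2 groups and 0 with age or sex, and all genes (382) became 821 with DESeq2, 174 with 2 groups, 15 with age and 97 with sex. For budesonide against unventilated lambs, the 6 genes became 2 with age and 3 with sex, and all genes (1501) became 346 and 668. Leaving out each library gave 0 to 1, 1 to 3 and 4 to 6 genes in these comparisons, and 66 to 207, 173 to 501 and 998 to 1657 of all genes. In liver, budesonide against surfactant lambs gave 1 gene with 2 groups (3 reported) and 3135 of all genes with DESeq2 or 884 with 2 groups (1994 reported). Surfactant against unventilated livers gave 1 gene with age or sex (3 reported) and 1398 of all genes with age or 4273 with sex (6911 reported), and budesonide against unventilated livers gave 2958 of all genes with age (7903 reported). Leaving out each liver library gave 1 to 4, 1 to 3 and 3 to 4 genes, and 1007 to 2838, 5509 to 8109 and 6654 to 8517 of all genes, in the same order of comparisons. The sex fits drop the library of unstated sex and fits without a library have fewer lambs; the other causes were not tested. With the replicate block for the animal in the 22 libraries of the 11 lambs with both tissues, the tissue difference was called for 428, 3748 and 4565 of all genes, against 604, 4081 and 4893 in the same libraries without the block and 683, 5170 and 5949 in all 24 libraries. Depth limits EOMES in both tissues and DCX in liver.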
